A study of Homo sapiens with 18 samples.

Results

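The miR-30 family was followed in HCT116 cells as the cultures grew from sparse to heavily overgrown. HCT116 is an established human colorectal carcinoma line of epithelial cells, and the cells here were wild type (WT), with no treatment named in the labels. The family was taken as the rows of its 5p arms (miR-30a-5p, miR-30b-5p, miR-30c-5p, miR-30d-5p and miR-30e-5p) and of the 3p arms of miR-30a and miR-30e. The tables list them as HSA-MIR-30A-5P, HSA-MIR-30B-5P, HSA-MIR-30C-5P, HSA-MIR-30D-5P, HSA-MIR-30E-5P, HSA-MIR-30A-3P and HSA-MIR-30E-3P, which makes 7 members of 2167 mature miRNAs. The tables held 4 further arms, miR-30b-3p, miR-30c-1-3p, miR-30c-2-3p and miR-30d-3p, which are given beside the members where both arms of a hairpin are compared. Whole cell RNA was taken on day 3 (50% confluency), day 5 (250%) and day 7 (400%, a nominal value from the labels). Small-RNAseq gave 3 libraries per day, 9 in all. Whole transcriptome RNAseq of the same line gave 3 libraries on day 3 and 3 on day 5, and day 7 was not analysed here. All samples came from 1 line, labelled as biological replicates, so day and density changed together and cannot be told apart.

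A miRNA gene is transcribed as part of a longer RNA, from which Drosha cuts a hairpin and Dicer a short duplex. One strand of the duplex, from the 5′ side (5p) or the 3′ side (3p), is loaded into an Argonaute protein, and bases 2 to 8 of the loaded strand, the seed, pair with sites that lie mostly in the 3′ UTRs of mRNAs. The miR-30 family is abundant in many epithelial tissues and is best known for targets in epithelial-mesenchymal transition, autophagy, Notch signalling and the silencing machinery itself.

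The mature sequences are shown because the family splits by its seeds. They were read from RefSeq (GRCh38.p14), where 5 of the 7 members were found (miR-30b-5p and miR-30d-5p were not), and are written 5′ to 3′ with the seed in capitals.
miR-30a-5p: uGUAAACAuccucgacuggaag
miR-30e-5p: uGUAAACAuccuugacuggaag
miR-30c-5p: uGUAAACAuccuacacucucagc
miR-30a-3p: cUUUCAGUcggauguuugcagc
miR-30e-3p: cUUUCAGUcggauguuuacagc
miR-30c-1-3p: cUGGGAGAggguuguuuacucc
miR-30c-2-3p: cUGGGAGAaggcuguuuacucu

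The 3 5p arms printed share the seed GUAAACA. The 3p arms of miR-30a and miR-30e share a second seed, UUUCAGU, and those of both miR-30c hairpins a further one, UGGGAGA. Counting from 1 at the 5′ end, miR-30a-5p and miR-30e-5p differ only by C13U (the base of miR-30a first), and miR-30a-3p and miR-30e-3p only by G18A. How reads that fit both arms of such a pair were assigned is not given in the sources used here, so the split between miR-30a and miR-30e carries that uncertainty. miR-30c-5p differs from miR-30a-5p at 5 positions, all after base 8, and is made from 2 hairpins with the same mature sequence, so its value cannot be divided between them.

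The 6 hairpins lie in 3 pairs (GRCh38, GENCODE annotation). MIR30E (chr1:40754355-40754446, plus strand) and MIR30C1 (chr1:40757284-40757372, plus strand) lie in introns of NFYC, which encodes a subunit of the CCAAT-binding factor NF-Y. Their starts are 2929 bases apart. MIR30A (chr6:71403551-71403621, minus strand) lies in an intron and MIR30C2 (chr6:71376960-71377031, minus strand) in an exon of the long noncoding RNA LINC00472, with 26591 bases between their starts. MIR30B (chr8:134800520-134800607, minus strand) and MIR30D (chr8:134804876-134804945, minus strand) lie 4356 bases apart in an intron of the unnamed long noncoding RNA ENSG00000289405.

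The small RNA tables hold log2 values that the authors had normalized between libraries. Back-transformed and summed over all mature miRNAs, they came to between 1542087 and 1947371 per library on day 3, between 1712225 and 1884026 on day 5 and between 2452607 and 2600754 on day 7. Each member is therefore given on 2 scales, the deposited log2 value and CPM, in which the mature miRNA values of a library were scaled to sum to 1000000 (here called library totals). The paper gives the yield of the small RNA libraries only as a range. The reads behind each small RNA value are unknown, and with them the counting error. Replicate 3 of day 3 had the lowest sum and gave the lowest deposited value of its day for 7 of 7 members. The whole transcriptome libraries held 27470978 to 56689369 reads on genes. Of 8 epithelial and colon cancer markers, 7 passed the minimum value in them, with EPCAM at 7227 ± 257 on day 3 and 7236 ± 173 on day 5 (normalized value, SD, n = 3), and VIL1 at 1.08 to 5.18.

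On day 3 the family was dominated by miR-30b-5p, at 2290 ± 171 CPM (SD, n = 3, as for all values per day). It was followed by miR-30d-5p at 657 ± 21.8 CPM, miR-30e-3p at 592 ± 11.8 CPM and miR-30c-5p at 455 ± 9.18 CPM. The remaining members were scarcer, with miR-30e-5p at 117 ± 9.28 CPM, miR-30a-5p at 24.9 ± 5.16 CPM and miR-30a-3p at 9.66 ± 0.84 CPM. The order was the same on day 5 and day 7, and the libraries of neighbouring members did not overlap on any day except for miR-30d-5p and miR-30e-3p on day 5. Their libraries then ran from 628 to 687 CPM and from 583 to 637 CPM. Among 2167 mature miRNAs ranked by mean CPM, miR-30b-5p moved from rank 56 on day 3 to rank 47 on day 5 and rank 42 on day 7. miR-30d-5p stood at ranks 108, 112 and 82, and miR-30a-5p at ranks 356, 348 and 303. miR-30e-3p stayed at ranks 113, 114 and 113. Ligation and amplification favour some small RNA sequences over others, so levels of different arms compare only roughly, while each arm's own change is not affected in that way.

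**Figure D1:**
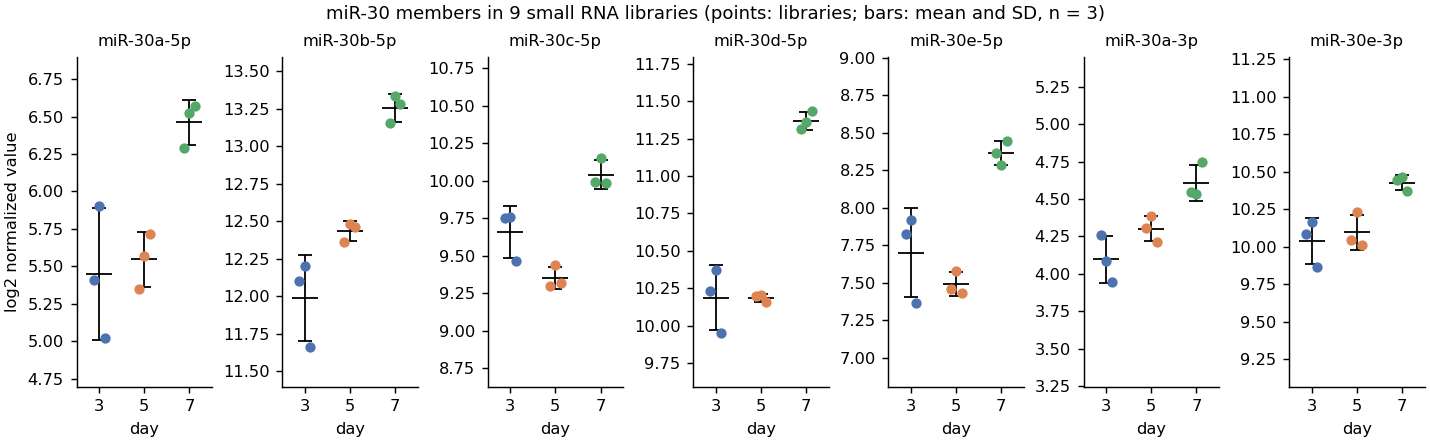
Deposited log2 value (vertical axis, own range per panel, each spanning the same number of log2 units) of the 7 miR-30 members against day (horizontal axis). Points are libraries, and bars are the mean and SD of 3 libraries; in every panel all 3 day 7 libraries lie above all 3 day 3 libraries.

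The first question was whether the family differed between the densest and the sparsest cultures. On the deposited scale all 7 members were higher on day 7 than on day 3 (limma, Benjamini-Hochberg adjusted p under 0.05 over 559 tested miRNAs), where 45.3% of all tested miRNAs were called higher. The members' median log2 fold change was 0.67, beside 0.30 over all tested miRNAs. Each member's 3 day 7 libraries lay above its 3 day 3 libraries, as they did for 55.8% of tested miRNAs. In bulk RNA a change in the number of cells that make a miRNA and a change in its amount per cell cannot be told apart.

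miR-30b-5p, the most abundant member, had deposited log2 values of 12.10, 12.20 and 11.66 on day 3, 12.36, 12.49 and 12.46 on day 5 and 13.15, 13.33 and 13.28 on day 7. The 3 days did not overlap and stood in order of day. Its log2 fold change from day 3 to day 7 was 1.27 (standard error, SE, 0.15, adjusted p = 0.000388, limma), a 2.41-fold rise that ranked 12 of 559. miR-30d-5p, made from the neighbouring hairpin, read 10.24, 10.38 and 9.95 on day 3, 10.20, 10.21 and 10.16 on day 5 and 11.31, 11.36 and 11.43 on day 7. Its day 3 and day 5 libraries overlapped and its day 7 libraries stood above both. The log2 fold change from day 3 to day 7 was 1.18 (SE 0.13, adjusted p = 0.000269, limma), with rank 17.

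miR-30a-5p read 5.41, 5.91 and 5.03 on day 3, 5.35, 5.57 and 5.72 on day 5 and 6.29, 6.52 and 6.57 on day 7. The day 3 libraries were the most scattered of any member, and those of day 7 were clear of both earlier days. It rose by a log2 fold change of 1.01 (SE 0.21, adjusted p = 0.00451, limma). miR-30e-5p, which differs from it by 1 base, read 7.82, 7.92 and 7.36 on day 3, 7.46, 7.58 and 7.43 on day 5 and 8.36, 8.29 and 8.45 on day 7. Its day 5 libraries lay between the lowest and the other two day 3 libraries, and its rise to day 7 was 0.67 (SE 0.15, adjusted p = 0.00731, limma). miR-30c-5p had the smallest rise of the 5p arms, with 9.75, 9.76 and 9.46 on day 3, 9.30, 9.44 and 9.32 on day 5 and 9.99, 10.15 and 9.98 on day 7. Its 3 day 5 libraries were the lowest of the 9, and its log2 fold change from day 3 to day 7 was 0.38 (SE 0.12, adjusted p = 0.0273, limma). That call was lost without any 1 of the 3 day 7 libraries, when the adjusted p was 0.0561 to 0.112.

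The 3p members were called as well. miR-30a-3p, the scarcest member, read 4.26, 4.08 and 3.95 on day 3, 4.31, 4.39 and 4.21 on day 5 and 4.54, 4.53 and 4.75 on day 7. Days 3 and 5 overlapped and day 7 stood just above them, with a log2 fold change from day 3 of 0.51 (SE 0.12, adjusted p = 0.00847, limma). miR-30e-3p read 10.08, 10.16 and 9.86 on day 3, 10.05, 10.23 and 10.01 on day 5 and 10.45, 10.47 and 10.37 on day 7. Its rise was 0.39 (SE 0.11, adjusted p = 0.019, limma), and without replicate 1 or replicate 2 of day 7 the adjusted p was 0.0618 or 0.0751.

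On library totals the picture narrowed to 3 members. The scale moved the median of all tested miRNAs from 0.30 to -0.20, and 16.6% of them were then called higher on day 7. miR-30b-5p rose from 2290 ± 171 CPM to 3890 ± 153 CPM, a log2 fold change of 0.77 (adjusted p = 0.00091, limma). miR-30d-5p rose from 657 ± 21.8 CPM to 1052 ± 50.3 CPM (0.68, adjusted p = 0.000733, limma), and miR-30a-5p from 24.9 ± 5.16 CPM to 35.1 ± 3.07 CPM (0.51, adjusted p = 0.032, limma). The other four did not pass on this scale, with log2 fold changes of 0.16 for miR-30e-5p, 0.01 for miR-30a-3p, -0.11 for miR-30e-3p and -0.12 for miR-30c-5p. The last pair was above 0 on the deposited scale and below 0 here. The members' median was 0.16 on library totals, which by construction is as far above the median of all tested miRNAs as on the deposited scale. Centred on the median of well-expressed miRNAs, 7 of 7 members were called higher, beside 38.1% of all tested miRNAs.

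**Figure D2:**
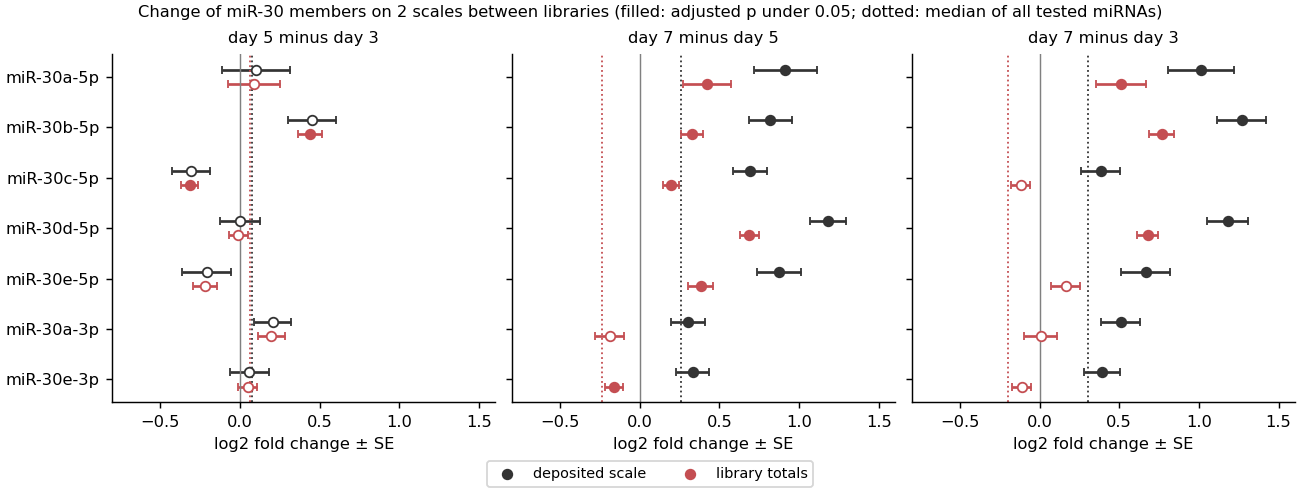
Log2 fold change (horizontal axis, with SE) of the 7 members (vertical axis) for day 5 minus day 3, day 7 minus day 5 and day 7 minus day 3, on the deposited scale (dark) and on library totals (red). Filled points passed adjusted p under 0.05 in limma and dotted lines mark the median of all tested miRNAs; miR-30b-5p and miR-30d-5p were past 0.6 from day 3 to day 7 on both scales.

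From day 3 to day 5, as the cultures passed confluency, the members went in different directions. None of the 7 was called on the deposited scale (limma, adjusted p under 0.05), while 8.53% of 539 tested miRNAs were called higher and 6.31% lower. Their median log2 fold change was 0.06 and that of all tested miRNAs 0.07. Among the 7, the largest rise was that of miR-30b-5p at 0.45 (adjusted p = 0.0857, limma). The largest fall was that of miR-30c-5p at -0.31 (adjusted p = 0.129, limma). On library totals, where 13.4% of tested miRNAs were called higher and 11.7% lower, miR-30b-5p was called higher (0.44, adjusted p = 0.0101, limma). miR-30c-5p was called lower on that scale, from 455 ± 9.18 CPM to 366 ± 4.76 CPM (-0.32, adjusted p = 0.0101, limma). Without replicate 3 of day 3, miR-30c-5p and miR-30e-5p were called lower on the deposited scale, at -0.40 (adjusted p = 0.016) and -0.38 (adjusted p = 0.0227). miR-30d-5p had a log2 fold change within 0.01 of 0 on both scales.

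On the deposited scale each member's log2 fold change was larger from day 5 to day 7 than from day 3 to day 5, a difference between steps that was not tested, and 7 of 7 were called higher on day 7 than on day 5 (limma, a contrast in the fit over all 9 libraries), beside 39.3% of 567 tested miRNAs. Their median was 0.82 against 0.26 over all, where from day 3 to day 5 these medians had been 0.06 and 0.07. miR-30d-5p led with 1.18 (SE 0.11, adjusted p = 0.000169) and ranked 5 of 567. The other 5p arms rose by 0.91 (miR-30a-5p), 0.87 (miR-30e-5p), 0.82 (miR-30b-5p) and 0.69 (miR-30c-5p), with adjusted p between 0.00114 and 0.00573. The 3p arms rose by 0.33 (miR-30e-3p, adjusted p = 0.0269) and 0.30 (miR-30a-3p, adjusted p = 0.0449). The call of miR-30e-3p was lost without replicate 1 or 3 of day 5 or replicate 1 or 2 of day 7 (adjusted p = 0.069 to 0.0971). That of miR-30a-3p was lost without replicate 2 of day 3 or any 1 library of day 5 or day 7 (adjusted p = 0.052 to 0.143). On library totals 10.6% of tested miRNAs were called higher and 43.4% lower. All 5 5p arms stayed among those called higher there, from 0.20 for miR-30c-5p to 0.69 for miR-30d-5p. miR-30b-5p stood at 0.33 on library totals for this step, below its 0.44 from day 3 to day 5. The 3p members were also lower at this step there, from 0.05 to -0.16 for miR-30e-3p and from 0.20 to -0.19 for miR-30a-3p. The larger change at the later step thus held for all members only on the deposited scale. On that scale miR-30e-3p was called lower (-0.16, adjusted p = 0.039, limma) and miR-30a-3p was not called (-0.19, adjusted p = 0.115). The 5p and 3p members thus lay on opposite sides of 0 on library totals and on the same side on the deposited scale. The 3 comparisons share their day 3, day 5 or day 7 libraries and are not independent of each other.

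The share of the miRNA pool taken by the 5p family does not depend on how libraries were scaled. The 5 5p arms together made up 0.361%, 0.370% and 0.332% of the summed mature miRNA values on day 3, 0.425%, 0.417% and 0.432% on day 5 and 0.533%, 0.557% and 0.568% on day 7. No 2 days overlapped, and the mean share went from 0.354% to 0.425% and 0.553%. The rise from day 3 to day 5 lay in miR-30b-5p, which went from 2290 to 3100 CPM. Over that step miR-30d-5p went from 657 to 653 CPM and miR-30a-5p from 24.9 to 26.3 CPM. miR-30c-5p fell from 455 to 366 CPM and miR-30e-5p from 117 to 101 CPM. The summed 5p value was 2.19-fold higher on day 7 than on day 3, and the sum over all mature miRNAs 1.41-fold. From day 3 to day 5 the same figures were 1.19-fold and 1.00-fold.

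**Figure D3:**
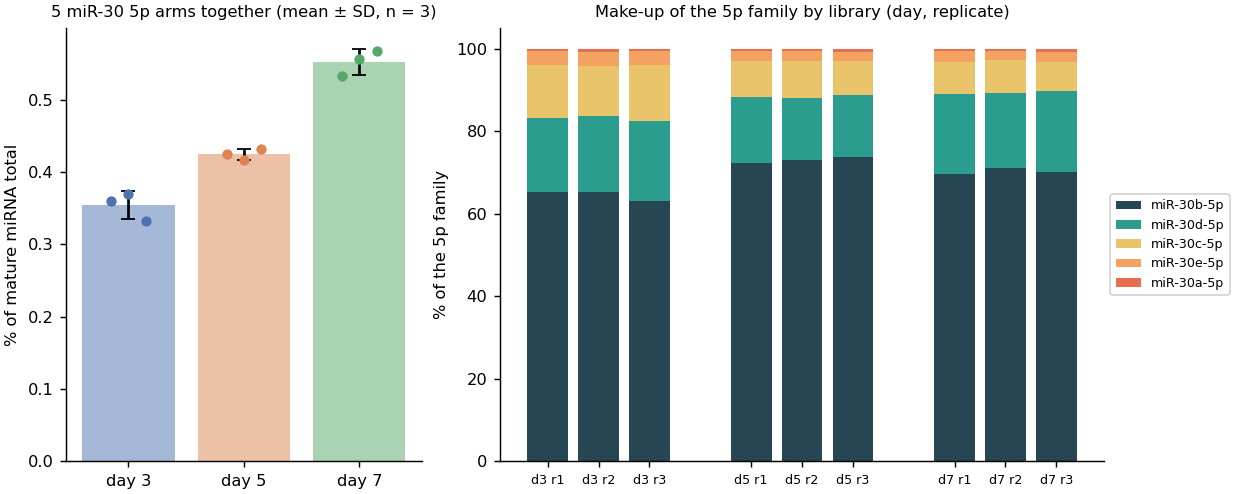
Left, the 5 miR-30 5p arms together as a percent of the summed mature miRNA values (vertical axis) per day, with bars at the mean, SD of 3 libraries and points per library. Right, each arm's percent of the 5p family (vertical axis) in each of 9 libraries; the miR-30b-5p part is largest in all 9 and the miR-30c-5p part is smaller on days 5 and 7 than on day 3.

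The make-up of the 5p family shifted as well. miR-30b-5p held 65.2%, 65.4% and 63.1% of it on day 3, 72.2%, 73.1% and 73.8% on day 5 and 69.7%, 71.2% and 70.2% on day 7. Day 3 lay below the other two days and day 5 on top. miR-30c-5p held 12.8%, 12.02% and 13.7% on day 3, 8.67%, 8.84% and 8.33% on day 5 and 7.78%, 7.84% and 7.15% on day 7, falling without overlap at each step. miR-30d-5p held 18.6% ± 0.73 on day 3, 15.4% ± 0.67 on day 5 and 19.04% ± 0.75 on day 7. miR-30e-5p went from 3.31% ± 0.08 to 2.37% ± 0.10 and 2.38% ± 0.20, and miR-30a-5p stayed between 0.560% and 0.831% in all libraries.

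Each 5p arm was also set against the mean log2 value of the other four within the same library, which removes any scaling. Each arm is thus part of the reference of the others. A gain of some arms requires a loss of others, and the 5 tests below are not independent. Between day 3 and day 7 miR-30b-5p gained 0.46 and miR-30d-5p 0.35 on the others, while miR-30c-5p fell by 0.65 and miR-30e-5p by 0.30. None of these 4 overlapped between the days, but how often members of other families part in this way was not worked out. A two-sided exact permutation test over the 3 days (1680 arrangements of 9 libraries) gave p = 0.00357, the smallest it can give, for miR-30b-5p and for miR-30c-5p. It gave p = 0.0286 for miR-30d-5p, p = 0.025 for miR-30e-5p and p = 0.604 for miR-30a-5p (exact permutation, 5 tests, not adjusted). The loss of miR-30c-5p relative to the others came at both steps, by 0.39 to day 5 and by 0.26 to day 7. miR-30b-5p gained 0.55 by day 5 and fell by 0.09 after it, and miR-30d-5p gained only after day 5 (0.36). For 1 pair of days, 3 libraries against 3 cannot give an exact p under 0.1.

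The 2 arms of a hairpin are cut from 1 precursor. Both are read in the same library, so their ratio there is free of scaling too. The 5p arm exceeded the 3p arm for miR-30b by a log2 difference of 6.46 ± 0.34 on day 3, 5.91 ± 0.07 on day 5 and 6.55 ± 0.06 on day 7. For miR-30d the difference was 0.88, 0.90 and 0.51 on day 3, 0.29, 0.14 and 0.13 on day 5 and 0.97, 1.04 and 1.14 on day 7. The 3 days did not overlap for miR-30d, with the arms closest to equal on day 5. miR-30e was the only one of the 5 hairpins compared with more 3p than 5p, at -2.26, -2.25 and -2.50 on day 3, -2.58, -2.65 and -2.58 on day 5 and -2.08, -2.18 and -1.92 on day 7. Its days were separate in the same order as those of miR-30d. For miR-30a the difference was 1.35 ± 0.41, 1.24 ± 0.24 and 1.85 ± 0.12 on the 3 days, with days 3 and 5 overlapping.

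The same exact permutation test over the 3 days gave p = 0.00357 for miR-30d and for miR-30e. It gave p = 0.0321 for miR-30b and p = 0.15 for miR-30a (exact permutation, 5 hairpins tested, not adjusted). miR-30c-5p against miR-30c-1-3p went 2.45 ± 0.08, 2.01 ± 0.17 and 2.52 ± 0.16 (exact permutation p = 0.0214), although its 5p arm also comes from MIR30C2. From day 5 to day 7 the 5p arm gained on the 3p arm without overlap in all 5 hairpins, by 0.51 to 0.86. Of 141 hairpins with both arms measured, 32.6% gained without overlap at that step and 20.6% lost. The median was 0.05 over the 141 and 0.63 over the 4 miR-30 hairpins among them, which are miR-30a, b, d and e. From day 3 to day 5, miR-30b, miR-30d and miR-30e lost without overlap (-0.55, -0.58 and -0.27), as did 15.6% of the 141. Both steps, a loss and then a gain without overlap, were found in 14 of 141 hairpins (9.93%), of which 3 were miR-30b, miR-30d and miR-30e. These hairpins were measured in the same 9 libraries and are not independent.

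**Figure D4:**
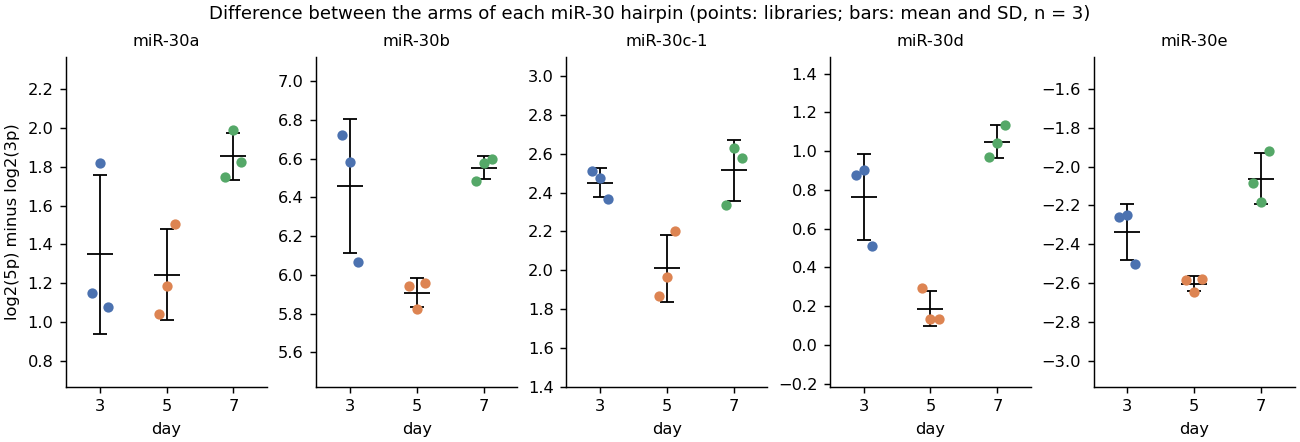
Log2 value of the 5p arm minus that of the 3p arm (vertical axis, own range per panel, same span) for 5 miR-30 hairpins against day (horizontal axis). Points are libraries and bars the mean and SD of 3; miR-30b, miR-30c-1, miR-30d and miR-30e sit lowest on day 5, and miR-30e is below 0 throughout.

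The 3p arms of miR-30b and miR-30d carried the day 5 difference. miR-30b-3p read 5.38, 5.62 and 5.59 on day 3, 6.41, 6.66 and 6.51 on day 5 and 6.67, 6.76 and 6.68 on day 7. It rose by a log2 fold change of 1.00 from day 3 to day 5 (SE 0.12, adjusted p = 0.000916, limma), rank 3 of 539, and was called on library totals too (0.99, adjusted p = 0.00465). From day 5 to day 7 it was not called on the deposited scale (0.18, adjusted p = 0.175) and was called lower on library totals (-0.32, adjusted p = 0.0417). miR-30d-3p, at 9.36, 9.47 and 9.44 on day 3, 9.91, 10.07 and 10.02 on day 5 and 10.34, 10.32 and 10.30 on day 7, rose by 0.58 to day 5 (SE 0.10, adjusted p = 0.00806, limma). Its 5p partner had a log2 fold change within 0.01 of 0 over that step. miR-30c-1-3p was called higher only from day 3 to day 7 (0.32, adjusted p = 0.041, limma), at -0.18 on library totals (adjusted p = 0.139). That call was lost without replicate 1 or 3 of day 3 or replicate 1 or 2 of day 7 (adjusted p = 0.0554 to 0.158). miR-30c-2-3p was near the bottom of the scale, between -1.29 and 1.1 in the 9 libraries, and was not tested.

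The miRNAs whose pattern was most like that of the mean log2 CPM of the 5 5p arms, by Pearson correlation over the 9 libraries among 445 other miRNAs averaging at least 10 CPM, were miR-200a-3p (r = 0.968), miR-301b-3p (0.961), miR-153-3p (0.960), miR-9985 (0.959) and miR-425-5p (0.959). The 9 points fall on 3 days and share libraries and scaling, so these values describe the libraries only. The 5p mean was 8.17 on day 3, 8.17 on day 5 and 8.57 on day 7 in log2 CPM. miR-200a-3p, an epithelial miRNA that targets ZEB mRNAs, followed it with 8.90, 8.87 and 9.24, and miR-425-5p with 9.67, 9.79 and 10.39.

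Of the RNAs that carry the hairpins, only NFYC passed the minimum value in the whole transcriptome on days 3 and 5. NFYC, host of MIR30E and MIR30C1, had normalized values of 1529, 1572 and 1798 on day 3 and 1685, 1653 and 1572 on day 5. The days overlapped, with a log2 fold change of 0.01 (SE 0.09, adjusted p = 0.957, limma on log2(value + 1)). LINC00472, host of MIR30A and MIR30C2, had 1 read in 3 of the 6 libraries and 0 in the others. The gene rows of the hairpins themselves were below the minimum, with 0 to 2 reads for MIR30D, 1 to 9 for MIR30B, 1 to 19 for MIR30E and 3 to 22 for MIR30C1. MIR30A, MIR30C2 and ENSG00000289405, the host of MIR30B and MIR30D, had no usable values and were not analysed here. NFYC mRNA is a spliced product and its level need not follow that of the intron.

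Known or proposed targets of miR-30 were looked up as a list of 40 genes, of which 37 passed the minimum value. Between day 3 and day 5, 18 were called higher and 11 lower (limma, adjusted p under 0.05), where 29.3% of 20129 tested genes were called higher and 27.6% lower. The list's median log2 fold change was 0.41, beside 0.01 over all tested genes. The closer background is the 13056 tested genes with an annotated 3′ UTR. Their median was 0.12, and 37.8% of them were called higher and 28.1% lower. A site was counted in the longest annotated 3′ UTR of the gene, which need not be the form these cells make. It had to hold TGTTTAC, the complement of the 5p seed (7-mer), or TGTTTACA (8-mer, a subset of the 7-mers), read on the transcript's strand. Of the 24 tested genes with an 8-mer, 10 were called higher and 9 lower, with a median of 0.19. Of the 8 tested genes without a 7-mer in this UTR, 4 were called higher and 2 lower. The direction of the listed genes was thus mixed with and without a site. At this step the 5p family went from 0.354% to 0.425% of the miRNA pool, a rise that lay in miR-30b-5p (2290 to 3100 CPM). The mean log2 CPM of the 5 5p arms was 8.17 on both days, and no member was called on the deposited scale.

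**Figure D5:**
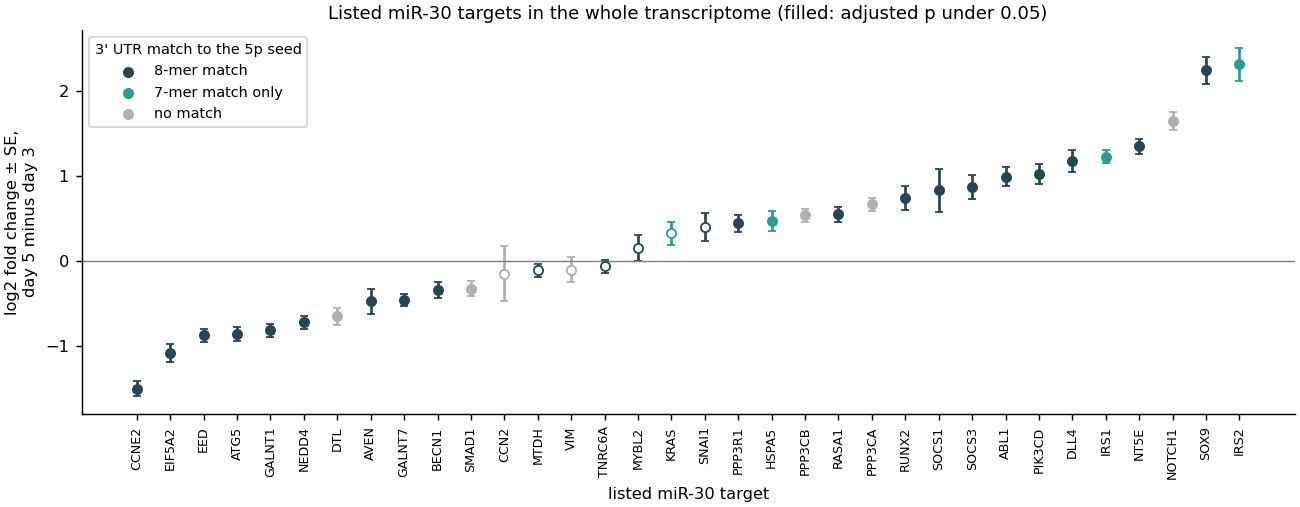
Log2 fold change from day 3 to day 5 (vertical axis, with SE) of 34 of the 37 tested genes of the miR-30 target list (horizontal axis, in order of change), with 3 libraries per day. Colours give the longest match to the 5p seed in the 3′ UTR and filled points passed adjusted p under 0.05 in limma; genes with an 8-mer lie at both ends of the order.

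Sites are shown for genes that moved in either direction or that belong to the processes the family is best known for. Each is given as 30 bases of GRCh38 on the transcript's strand, with the match at the stated position in capitals. The EED window also holds its adjacent 8-mer (chr11:86278671-86278678), left in lower case.
SOX9 (chr17:72126386-72126393, plus): ttgtatattatTGTTTACAataaatataca
IRS2 (chr13:109755687-109755693, minus): ggtacctgcgaTGTTTACgtccacaccgag
EIF5A2 (chr3:170889689-170889696, minus): gtacactgaaaTGTTTACAtactgaattct
EED (chr11:86278662-86278669, plus): gaatgtagtgaTGTTTACAttgtttacatt
ATG5 (chr6:106186008-106186015, minus): aaaatttcctaTGTTTACAgtctgtctatt
BECN1 (chr17:42810655-42810662, minus): taaacagtacaTGTTTACAataccaaaaaa
SNAI1 (chr20:49988762-49988769, plus): tgggaggaagaTGTTTACAtttttaaaggt
TNRC6A (chr16:24824553-24824560, plus): ttgaaccttctTGTTTACAgatttttttgt

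In epithelial-mesenchymal transition and matrix, SNAI1, a repressor of CDH1, read 191, 219 and 285 on day 3 and 338, 293 and 281 on day 5. The days overlapped and it was not called (0.41, adjusted p = 0.0834, limma), while edgeR on the recovered reads gave adjusted p = 0.0138. CCN2, a matricellular growth factor with no match, read 102 ± 38.9 and 89.6 ± 23.9 (-0.15, adjusted p = 0.72, limma), and VIM, an intermediate filament of mesenchymal cells, 330 ± 19.9 and 312 ± 58 (-0.10, adjusted p = 0.608). LOX and ITGB3 were below the minimum value, at up to 1.42 and 7.50 in any library. CDH1, the epithelial cadherin, rose from 637 ± 57.1 to 3940 ± 133 (2.63, adjusted p = 0.0001, limma).

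Rises were found among signalling genes and transcription factors of the list. IRS2, an adaptor of the insulin receptor, rose from 167 ± 41.1 to 815 ± 44.2 (2.31, adjusted p = 0.000336, limma), and IRS1 from 3097 ± 177 to 7261 ± 190 (1.23). SOX9, a transcription factor of intestinal crypts, rose from 1569 ± 301 to 7348 ± 562 (2.24, adjusted p = 0.000235, limma). In Notch signalling the receptor NOTCH1, with no match in its UTR, rose from 924 ± 104 to 2890 ± 194 (1.65, adjusted p = 0.000222, limma) and the ligand DLL4, with an 8-mer, from 26 ± 3.45 to 60.2 ± 6.36 (1.18, adjusted p = 0.000706). Other genes with an 8-mer that rose were NT5E (1.35), PIK3CD (1.02), ABL1 (1.00), SOCS3 (0.87), SOCS1 (0.84), RUNX2 (0.75), RASA1 (0.55) and PPP3R1 (0.45). The call of SOCS1 was lost without replicate 1 or 3 of either day (adjusted p = 0.0526 to 0.0892, limma).

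The falls were led by CCNE2, a G1/S cyclin with 8-mer sites, from 1879 ± 118 to 665 ± 42.3 (-1.50, adjusted p = 0.000189, limma). EIF5A2, a translation factor, read 995, 1125 and 975 on day 3 and 530, 435 and 500 on day 5, without overlap (-1.08, adjusted p = 0.000541, limma). EED, a subunit of the Polycomb complex PRC2 with a pair of adjacent 8-mer sites, fell from 1978 ± 84.3 to 1082 ± 40.0 (-0.87, adjusted p = 0.000373, limma). The glycosyltransferases GALNT1 and GALNT7 fell by 0.81 and 0.45 on the log2 scale, the ubiquitin ligase NEDD4 by 0.72 and the apoptosis inhibitor AVEN by 0.47. AVEN lost its call without any 1 library except replicate 1 of day 3 (adjusted p = 0.0534 to 0.105, limma). In autophagy, ATG5, needed to conjugate LC3, read 2726, 2620 and 2939 on day 3 and 1523, 1490 and 1569 on day 5, without overlap (-0.85, adjusted p = 0.00043, limma). BECN1, a subunit of the lipid kinase complex that starts autophagosomes, fell from 2939 ± 259 to 2320 ± 97.7 (-0.34, adjusted p = 0.0239, limma), a call lost without replicate 2 of day 3 or replicate 2 or 3 of day 5 (adjusted p = 0.069 to 0.0767).

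TNRC6A, the scaffold that links Argonaute to the deadenylases, holds 4 7-mers of which 2 are 8-mers. It read 4011, 4387 and 4305 on day 3 and 4162, 3944 and 4065 on day 5. The days overlapped and it was not called (-0.06, SE 0.08, adjusted p = 0.525, limma). Other genes with an 8-mer that were not called included MYBL2 (0.16) and MTDH (-0.10). Beside these genes, 6 of 7 tested epithelial markers were called higher on day 5, with the list summing to 37770 to 55945 per library on day 3 and 104448 to 105308 on day 5. Of 9 markers of blood, endothelium, fibroblasts and smooth muscle, 2 of the 3 tested were called higher, COL1A1 from 521 ± 42.1 to 1129 ± 33.2 and ACTA2 from 64.7 ± 19.4 to 149 ± 14.9. The list summed to 598 to 642 on day 3 and 1256 to 1352 on day 5, with PTPRC, CD3E, CD68 and CDH5 between 0 and 5.42 in every library and PECAM1 not analysed here. Their part in the change of the targets was not tested.

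The question of whether transcripts with a miR-30 site moved apart from others was put to 13056 tested genes with an annotated 3′ UTR. A 7-mer for the 5p seed lay in 2430 of them (18.6%). Their median log2 fold change from day 3 to day 5 was 0.06, beside 0.14 for the 10626 without a match. Of genes with a match 35.6% were called higher and 31.6% lower (limma, adjusted p under 0.05), and of those without 38.3% and 27.3%. The median was 0.06 with 1 match, 0.06 with 2, 0.04 with 3 or more and 0.09 with an 8-mer. UTR length moved with the match, at a median of 3064 bases with and 1207 bases without. Within classes of UTR length the medians with and without a match were -0.02 and 0.08 (short), -0.00 and 0.17 (middle) and 0.08 and 0.17 (long). Genes with a 7-mer for the seed of miR-30a-3p and miR-30e-3p (ACTGAAA) had a median of -0.02. The quartiles over genes were -0.42 and 0.55 with a match and -0.39 and 0.66 without. The medians are descriptions with no test. The part of UTR length in these gaps beyond the 3 classes was not tested.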

How the data were processed

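Small RNA and whole transcriptome libraries of HCT116 cells were grouped by the day and replicate number in the sample labels. The members and gene lists were chosen with earlier results of these data known.

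For the small RNA, the authors mapped trimmed reads to miRNA sequences (hairpins and mature arms), normalized them (TMM and edgeR in the methods) and deposited log2 values, whose exact transformation is not named. Whole transcriptome values were deposited as a normalized signal per gene (Ensembl genes on hg38, CLC Genomics Workbench, unique molecular identifiers in the library). Per the labels' processing notes FastQC 0.11.8 and MultiQC 1.7 were used. All signal values (100%) were whole multiples of 1 read within 0.01, so reads were recovered. The authors' own fold changes and p-values stand in the same tables and were not used.

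limma 3.58.1 in R 4.3.3 was fitted to the log2 values, or to log2(signal + 1), which understates changes of low genes, for features at 10 or above in 3 or more fitted libraries (559, 539 and 567 miRNAs and 20129 genes). P-values were adjusted by Benjamini-Hochberg over all features tested, at 0.05. The design had set count models first and limma for log2 or normalized values. edgeR 4.0.16 called 12280 genes on recovered reads and DESeq2 1.42.0 called 11110, against 11450 with limma. Single values were put to exact permutation tests, two-sided (scipy 1.17.1). Python 3.11.15, pandas 2.3.3, numpy 2.4.6 and matplotlib 3.10.9 were used otherwise. The fits were tested on simulated data. P-values measure the spread between 3 libraries, which the labels call biological replicates.

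Named were the 7 members, the other miR-30 arms, host genes, listed targets with the 5 largest rises and falls or an 8-mer site, TNRC6A, SNAI1, CCN2, LOX, ITGB3, BECN1 and ATG5, cell type markers, and the 5 most similar miRNAs. Of the listed targets tested, 3 are counted but not reported singly here. IRS1, SMAD1 and VIM were added after their values were seen. Sites came from 3′ UTRs of GENCODE release 44. Alternatives were library totals, median centring, no minimum, a 2-fold minimum, a pseudocount of 0.1, limma-trend, other sets of fitted libraries, the replicate number as a block, and leaving out each library. Leaving libraries out of the within-family and 3 of the arm comparisons was added after the data were seen.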

Additional observations from a re-analysis of the deposited data

How the results depend on the processing

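Over their alternatives, the log2 fold changes of the 7 members kept direction and side of the threshold in 70 cases from day 3 to day 7, in 69 from day 3 to day 5 and in 85 from day 5 to day 7. They lost the call in 12, 0 and 18 cases, gained it in 0, 8 and 0, and changed sign in 2, 7 and 2. From day 3 to day 7 the members called went from 7 to 3 with a 2-fold minimum, 3 on library totals, 2 without the minimum value (more miRNAs are then tested) and 5 to 7 with 1 library left out. From day 3 to day 5 they went from 0 to 2 on library totals, 2 with median centring, 1 with all 9 libraries in the fit, 1 with limma-trend and 0 to 2 with 1 library left out. From day 5 to day 7 they went from 7 to 1 with a 2-fold minimum and 4 without the minimum value. The 2-fold minimum leaves out smaller changes by definition, and the cause of the other differences was not tested.

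All called miRNAs numbered 300, 80 and 251 in the same order. A 2-fold minimum left 58, 14 and 17. Without the minimum value 50 were called from day 3 to day 5 and 164 from day 5 to day 7. From day 3 to day 5 library totals gave 135, median centring 124 and leaving out 1 library 36 to 118, the highest without replicate 3 of day 3.

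On library totals the sign changed from day 3 to day 7 for miR-30c-5p (-0.12), miR-30e-3p (-0.11) and miR-30c-1-3p (-0.18), and from day 5 to day 7 for miR-30a-3p (-0.19), miR-30e-3p (-0.16), miR-30b-3p (-0.32), miR-30c-1-3p (-0.31) and miR-30d-3p (-0.17). With median centring miR-30b-3p (-0.015) and miR-30c-1-3p (-0.0069) changed sign at the latter step and miR-30d-5p (0.049) from day 3 to day 5. Leaving out 1 library gave from day 3 to day 5 -0.11 to 0.33 for miR-30a-5p, -0.12 to 0.094 for miR-30d-5p and -0.028 to 0.12 for miR-30e-3p.

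In the whole transcriptome NFYC went to -0.0035 with edgeR and TNRC6A to 0.0058 on library totals. Leaving out 1 library gave -0.039 to 0.078 for NFYC, -0.44 to 0.12 for CCN2 and -0.23 to 0.046 for VIM. The median of genes with a miR-30 site was 0.12 on library totals, 0.087 for 8-mer sites and 0.029 to 0.060 with 1 library left out. For genes without a site the median on library totals is not given, so the 0.12 cannot be set against their 0.14 on the deposited scale.

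Libraries with the same replicate number shared little deviation, as deviations from the day means correlated between -0.08 and 0.12. Whether the number marks cultures handled together is not given in the labels and was not tested. With the number as a replicate block, 302, 71 and 254 miRNAs and 10533 genes were called. Of the members, the block ended only the call of miR-30a-3p from day 5 to day 7 (adjusted p = 0.0632). It also ended those of miR-30c-1-3p from day 3 to day 7 (0.0515) and of BECN1, SMAD1 and SOCS1 (0.0561 to 0.0693). With 3 libraries per day, small changes of scarce arms such as miR-30a-3p were close to the threshold. The reads behind their values are unknown, and with them their counting error.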
